A study of Mus musculus with 30 samples.

Results

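The proximal V region beyond Ighv5-12 is the stretch of the mouse antibody heavy-chain locus (Igh, chromosome 12) that follows the cluster of V segments nearest to the D segments. Its members were every junction that fell in a window set by position alone, chr12:114965001-115800000 on the alignment target of the bone marrow libraries and chr12:114945001-115600000 on mm9 in the v-Abl libraries. The windows span 835 kb and 655 kb. They held 88556 of 1139295 bone marrow junctions and 3748 of 935698 v-Abl junctions. In bone marrow these junctions formed 48 of 206 V and D junction peaks. In the v-Abl lines they fell on 35 of 39 segments and peaks of the window, out of 193 V and D segments and peaks in all. The 4 without a junction within 100 bases of their annotation were Ighv7-2, Ighv3-2, Ighv16-1 and Ighv13-1.

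The libraries were made by HTGTS-V(D)J-seq, in which genomic DNA is amplified outward from JH4, the bait, and the sequence joined to it is read. All 10 groups had 3 libraries each. In bone marrow, B220+ IgM- CD43+ cells (pro-B cells) were sorted. The mice were 129SV, and their genotypes were CBE1&2-/- (CBE12mut), CBE1-/- (CBE1mut), CBE1inv/inv (CBE1inv), CBE2-/- (CBE2mut), CBE2inv/inv (CBE2inv) and WT. CBE1 and CBE2 are the CTCF-binding elements of IGCR1, the intergenic control region between V and D, and "inv" marks an inverted element. The v-Abl groups were lines of C57BL/6 pro-B cells transformed by v-Abl. 3CBEdel cells lacked the CTCF-binding elements at the 3' end of Igh, and WT cells carried them. Cells of both genotypes were RAG1-/-, carried an Emu-Bcl2 transgene, had a single Igh allele and bore a WAPL degron (WAPL releases cohesin from DNA). RAG1/2 was supplied by retrovirus, and all cultures received 3 µM STI-571, an Abl kinase inhibitor that arrests these cells in G1, for 4 days. DoxIAA cultures also received 150 µM IAA (auxin) and 2 µg/mL doxycycline for the last 3 days, and untreated cultures received neither. The labels do not say whether the 3 libraries of a group came from separate cultures or animals, so p-values measure the spread between these libraries.

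Igh assembly joins a D segment to JH first and then a V segment to the DJH product. The RAG recombinase cuts beside each segment at a recombination signal, a heptamer and a nonamer set apart by a spacer. In developing B cells cohesin extrudes chromatin loops past RAG bound at the JH end, and this scanning is impeded at CTCF-bound elements such as those of IGCR1. In mouse, many V segments near the D end carry a CTCF-binding element just behind their recombination signal, and V segments farther away are reached when the locus contracts or when extrusion runs longer.

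The recombination signals of the 10 segments used most in DoxIAA-treated v-Abl cells are shown because the junctions of the window stop at these borders. Each line gives 12 bases of the V segment and its signal, 5' to 3' on the minus strand of mm9, with the heptamer and the nonamer in capitals. The order is by mean level over the 6 DoxIAA libraries.
Ighv13-2 (chr12:115595933-115595983): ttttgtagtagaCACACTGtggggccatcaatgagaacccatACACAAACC
Ighv3-8 (chr12:115560546-115560596): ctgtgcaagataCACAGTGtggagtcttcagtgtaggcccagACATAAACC
Ighv7-1 (chr12:115134580-115134630): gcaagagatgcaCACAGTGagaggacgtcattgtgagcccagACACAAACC
Ighv11-2 (chr12:115286413-115286463): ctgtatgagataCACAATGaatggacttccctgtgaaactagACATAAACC
Ighv2-9 (chr12:115117268-115117318): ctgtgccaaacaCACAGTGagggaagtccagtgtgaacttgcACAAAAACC
Ighv3-3 (chr12:115434611-115434661): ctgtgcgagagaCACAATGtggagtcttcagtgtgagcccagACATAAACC
Ighv7-3 (chr12:115391352-115391402): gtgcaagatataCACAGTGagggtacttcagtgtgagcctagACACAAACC
Ighv3-6 (chr12:115526324-115526374): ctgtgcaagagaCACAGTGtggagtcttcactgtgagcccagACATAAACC
Ighv5-17 (chr12:115097321-115097371): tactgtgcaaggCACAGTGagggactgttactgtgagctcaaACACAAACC
Unannotated peak (chr12:115271975-115272025): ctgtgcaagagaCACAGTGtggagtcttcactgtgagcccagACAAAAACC
All 10 had a 23-base spacer. The heptamer matched the consensus CACAGTG at all 7 bases in 7 of them and at 6 bases in Ighv13-2, Ighv11-2 and Ighv3-3. The nonamer matched ACAAAAACC at 8 or 9 of 9 bases. The unannotated peak lies 130 bases below the lowest annotated base of Ighv3-2, on the side at which a V segment joins. It was counted apart because it lay over 100 bases away. Whether its junctions belong to Ighv3-2, which had none at its annotated bases, was not tested.

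A CTCF-type core, spelled CCA, NN, AG, NN and GGC without gaps (N is any base), was searched on both strands in the 100 bases behind each nonamer. It was present behind 19 of the 35 signals found in the window (54.3%), against 9 of 10 (90.0%) in the V segments nearer to D and 0 of 77 in those beyond the window. Within the window it stood behind 8 of 9 Ighv5 and Ighv2 signals and 11 of 26 signals of other families. Of all 24369 windows of 100 bases in the V part of mm9, 0.43% held it. Of the 10 segments printed above, only Ighv11-2 and Ighv7-3 had no match. Ighv2-9 and Ighv5-17 had CCAGCAGGGGGC, starting 22 and 20 bases behind the nonamer on the same strand, Ighv3-8 had CCAACAGGGGGC and Ighv13-2 had CCATCAGGGGGC, both 22 bases behind it. A match describes these letters only.

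Libraries held 11105 to 98682 junctions in bone marrow and 13180 to 175957 in the v-Abl lines, and the junctions of the window numbered 875 to 10345 and 215 to 509 per library. The 95% Wilson interval of the window's level was 7393 to 8395 per 100000 in the shallowest bone marrow library (CBE2mut replicate 2) and 1429 to 1862 in the shallowest v-Abl library (3CBEdel DoxIAA replicate 3). Such intervals cover counting error only, since reads are not independent molecules. Junctions away from any segment or peak were 0.00% to 0.74% of the window's junctions in bone marrow and 0.00% to 3.32% in the v-Abl lines. At least 97.07% of each library's junctions in the window had the orientation of deletional joining. No WT library was in the sequencing run of CBE2mut and CBE2inv, so genotype and run cannot be told apart when they are set against WT, nor when CBE12mut is set against CBE2mut.

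Across bone marrow genotypes the window's level, its junctions per 100000 junctions of a library, was lowest with both IGCR1 elements mutated. The level is a part of all junctions, so it also moves with the joins of V segments nearer to D. Those were 59478 of 74102 junctions in CBE12mut replicate 1 and 6954 of 79560 in WT replicate 1. CBE12mut libraries had 2879.8, 3504 and 2765 per 100000, CBE1mut libraries 6743, 6108 and 6060.1, and WT libraries 10869.8, 10424 and 9708. All CBE12mut libraries lay below all CBE1mut libraries, and those below all WT libraries. CBE1inv libraries had 9309, 10483 and 10152, CBE2mut libraries 11506, 7879 and 6842, and CBE2inv libraries 9223, 10776 and 11236. Each of these 3 groups overlapped WT, and CBE2mut alone spanned nearly the whole range from CBE1mut to WT. The 6 genotypes differed when the spread of group means of log2 levels was tested by permutation (p = 0.00017, Benjamini-Hochberg adjusted p = 0.00289 over 17 comparisons), as did the 4 genotypes of the run that held WT (permutation p = 0.00028).

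In means, CBE12mut stood at 3049.5 ± 398 and WT at 10334 ± 586 per 100000 (SD, n = 3 each), a fold of 0.294. CBE1mut, at 6303 ± 381, was 0.610 of WT, and CBE12mut was 0.482 of CBE1mut. Each exact two-sided permutation p was 0.1, the smallest that 3 against 3 libraries allow. CBE1inv averaged 9982 ± 605, which was 1.58 times CBE1mut with no overlap (exact permutation p = 0.1) and 0.966 of WT with overlap (exact permutation p = 0.6). CBE2inv averaged 10412 ± 1055 and CBE2mut 8742 ± 2448, with overlapping libraries (exact permutation p = 0.4).

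**Figure D1:**
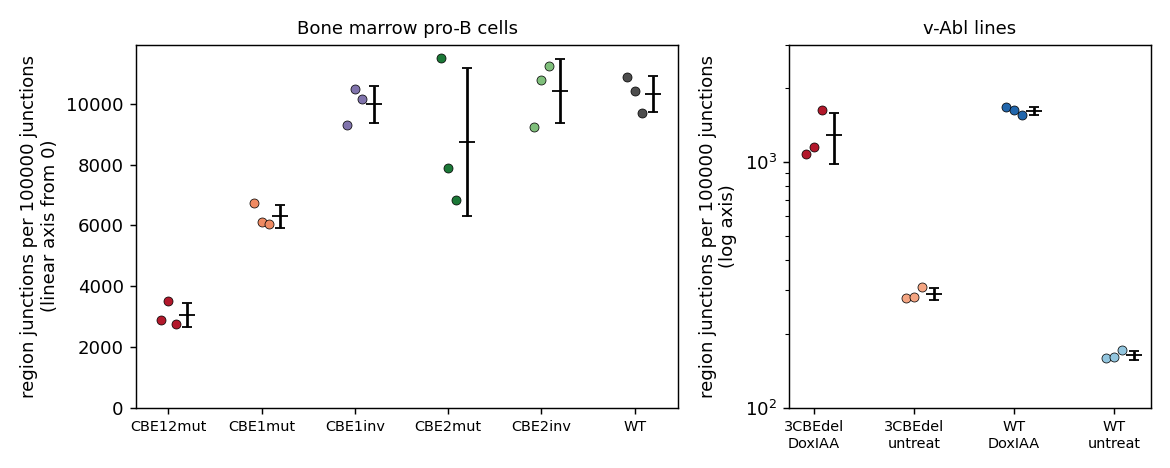
Junctions of the window per 100000 junctions of the library, 1 point per library, with the mean and SD of 3 libraries per group; bone marrow groups are on the left on a linear axis from 0 and v-Abl groups on the right on a log axis. CBE12mut libraries sit between 2765 and 3504 and WT bone marrow libraries between 9708 and 10869.8; the lowest DoxIAA library of the v-Abl lines is at 1072 and the highest untreated one at 311.

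As a share of V joins the window separated the bone marrow genotypes more sharply. It took 3.35%, 4.08% and 3.34% of V joins in CBE12mut, 9.61%, 8.49% and 8.54% in CBE1mut, and 30.1%, 30.1% and 32.7% in WT. Shares were 21.9% ± 0.79 in CBE1inv, 20.4% ± 1.65 in CBE2mut and 25.9% ± 1.72 in CBE2inv (SD, n = 3 each). In each of the 5 mutant genotypes all 3 libraries lay below all 3 WT libraries (exact permutation p = 0.1 each), and CBE1inv and CBE2inv lay above CBE1mut and CBE2mut by 13.0 and 5.57 percentage points with no overlap (exact permutation p = 0.1 each). Over the 6 genotypes the permutation p was 1e-05, the smallest that 100000 draws can give (adjusted p = 0.00017), and within the run of WT it was 6e-05.

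The order was not the same without the V segments between D and the window. With their joins left out of the denominator, the window took 48.7% ± 3.37 of the remaining V joins in CBE12mut, with 48.5% ± 0.56 in CBE1mut and 45.6% ± 1.21 in CBE1inv. It took 43.7% ± 4.14 in CBE2mut, 39.04% ± 1.44 in CBE2inv and 42.6% ± 2.89 in WT. CBE12mut then stood 6.05 percentage points above WT (exact permutation p = 0.2) and CBE1mut 5.90 points above it (exact permutation p = 0.1), the opposite direction to the share of all V joins.

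**Figure D2:**
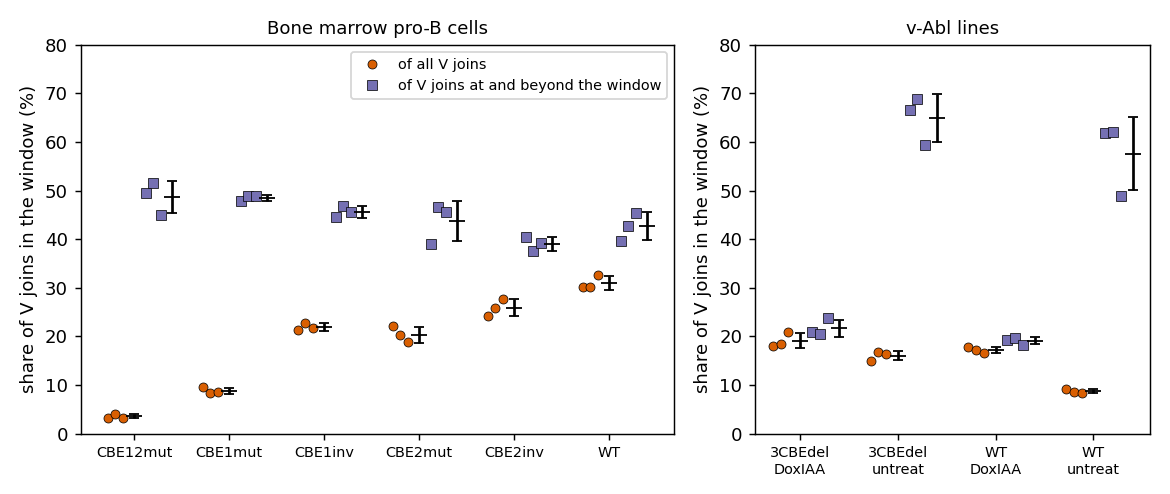
Share of V joins that fell in the window, in percent, 1 point per library with mean and SD of 3 libraries; circles use all V joins of the library and squares only V joins at and beyond the window. In bone marrow the circles run between 3.34% and 32.7% while all squares lie between 37.6% and 51.6%; in the v-Abl lines the squares are higher in untreated than in DoxIAA libraries and the circles lower.

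The most used peak of the window in bone marrow was Ighv2-9. On the bone marrow target, whose coordinates do not compare with mm9, its junctions lay at chr12:115453071-115453129. Ighv2-9 had 285, 339.9 and 266 junctions per 100000 in CBE12mut, 608, 613 and 697 in CBE1mut, and 837, 690.0 and 791 in WT. The 3 CBE12mut libraries were the lowest, and CBE1mut overlapped WT. Its log2 change was -1.40 in CBE12mut against WT (SE 0.21, limma voom adjusted p = 4.13e-07) and -0.28 in CBE1mut against WT (SE 0.19, limma voom adjusted p = 0.172).

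Ighv7-1, a V pseudogene by its RefSeq gene type, came next, at chr12:115470140-115470171. It had 206, 214 and 164 junctions per 100000 in CBE12mut, 427, 419 and 511 in CBE1mut, and 674, 714 and 496 in WT. Its CBE12mut libraries were lowest here too, and CBE1mut again overlapped WT (log2 change -1.67, SE 0.25, limma voom adjusted p = 3.84e-07 in CBE12mut, and -0.44, SE 0.22, limma voom adjusted p = 0.0753 in CBE1mut). Ighv5-17, at chr12:115427670-115427698, averaged 168 ± 49.7 in CBE12mut, 305 ± 26.5 in CBE1mut and 484 ± 50.4 in WT. For Ighv5-17 neither mutant overlapped WT, and both fell (limma voom adjusted p = 1.45e-06 in CBE12mut and 0.0147 in CBE1mut).

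The other 7 of the 10 most used bone marrow peaks could be given only by position and closest C57BL/6 sequence. They lay at 115364195 (closest to Ighv2-6), 115608445 (closest to the unannotated peak shown above), 115635402 (Ighv14-3), 114998635 (Ighv5-9), 115768765 (Ighv9-2), 115788124 (Ighv7-3) and 115523698 (closest to an unannotated mm9 peak). The 10 peaks together held 53.2% of the window's pooled bone marrow junctions. The peak at 115768765 averaged 131 ± 3.36 in CBE12mut and 216 ± 41.5 in CBE1mut, while CBE1inv had 523 ± 49.6 and WT 470.3 ± 54.7. At this peak CBE1mut fell by 1.13 on the log2 scale against WT (limma voom adjusted p = 0.000314), and CBE1inv rose by 1.29 against CBE1mut (limma voom adjusted p = 3.3e-05) to a level whose libraries overlapped WT.

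Of the 48 bone marrow peaks, 46 passed the filter of at least 10 junctions in at least 3 libraries. The peaks at 115343912 and 115622576 did not. All 46 fell in CBE12mut against WT, where 82.2% of all 191 V and D peaks tested fell, so the count is read against a background in which most peaks fell. The median log2 change was -1.84 over the window's peaks and -2.04 over all peaks tested, and the window's values ran between -4.13 and -1.12. In CBE1mut against WT 30 of 46 fell, where 57.1% of all peaks fell, with medians of -0.78 in the window and -1.06 over all, and 19 fell without CBE1mut replicate 3. Relative to the median change of all peaks the window therefore stood slightly higher in both. Under median-of-ratios scaling 1 peak of the window was called in CBE12mut and 2 in CBE1mut, and the changes of Ighv2-9, Ighv7-1 and Ighv5-17 in CBE12mut turned to 0.58, 0.27 and 0.41.

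Among the largest falls, Ighv14-2 averaged 28.8 ± 16.6 junctions per 100000 in CBE12mut, 65.3 ± 25.6 in CBE1mut and 165 ± 13.6 in WT. Ighv14-2 fell by 2.64 on the log2 scale in CBE12mut and by 1.40 in CBE1mut (limma voom adjusted p = 6.83e-07 and 0.000687). Ighv2-7 averaged 6.13 ± 5.43 in CBE12mut, 48.1 ± 24.2 in CBE1mut and 45.8 ± 7.25 in WT, and fell by 3.39 in CBE12mut (limma voom adjusted p = 0.000444). The 3 CBE1mut libraries of Ighv2-7 overlapped WT. The peak at 115187353, closest to Ighv2-9 at 93.6% identity, averaged 13.3 ± 11.7 in CBE1mut and 68.7 ± 21.1 in WT, the largest fall of the window in that comparison (-2.95, limma voom adjusted p = 0.001).

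Inversion of CBE1 set against its mutation gave 23 of 46 peaks higher, where 39.8% of all peaks were higher, and none lower. The count was 0 with median-of-ratios scaling or the window's own junctions as library size, 8 by limma trend and 42 with V joins as size. It was 11 and 6 without CBE1mut replicate 2 or 3, and 13 and 15 without CBE1inv replicate 2 or 3. Ighv2-9 rose by 0.48 on the log2 scale and Ighv5-17 by 0.69 (limma voom adjusted p = 0.0274 and 0.0154), while Ighv7-1 changed by 0.30 (limma voom adjusted p = 0.23). The peak at 115187353 averaged 58.9 ± 19.9 in CBE1inv against the 13.3 of CBE1mut and rose by 2.71 (limma voom adjusted p = 0.00341). Against WT, CBE1inv had 1 of 46 peaks called, where 6.81% of all fell. It was the peak at 115324070, with 4.78 ± 4.58 in CBE1inv and 23.17 ± 12.002 in WT (-2.76, limma voom adjusted p = 0.0403), and no peak was called without WT replicate 2 or 3 or without any 1 of the CBE1inv libraries.

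CBE2mut had 2 of 46 peaks lower than WT, where 7.85% of all were lower, with 5 called without CBE2mut replicate 1 and 1 without CBE2mut replicate 3. They were the peak at 115588829, with 112 ± 64.6 in CBE2mut and 248 ± 25.2 in WT (-1.53, limma voom adjusted p = 0.0108), and the peak at 115608445, with 294 ± 237 and 663 ± 83.7 (-1.24, limma voom adjusted p = 0.00651). CBE2inv had 0 of 46 called against WT by limma voom, where 5.24% of all were called, with 7 at an unadjusted p under 0.05 and 0 by limma trend. CBE2inv had 0 of 46 called against CBE2mut by limma voom, where 3.14% of all were called, with 2 at an unadjusted p under 0.05 and 0 by limma trend. The share of all peaks at an unadjusted p was not taken, so the 7 and 2 are not read as a result. CBE12mut had 29 of 46 lower than CBE1mut, where 45% of all were lower, and 36 of 46 lower than CBE2mut, where 55.5% of all were lower and where genotype and run cannot be told apart. With median-of-ratios scaling, and with the window's own junctions as library size, these counts were 0 and 1. These comparisons share groups and are not independent of one another.

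**Figure D3:**
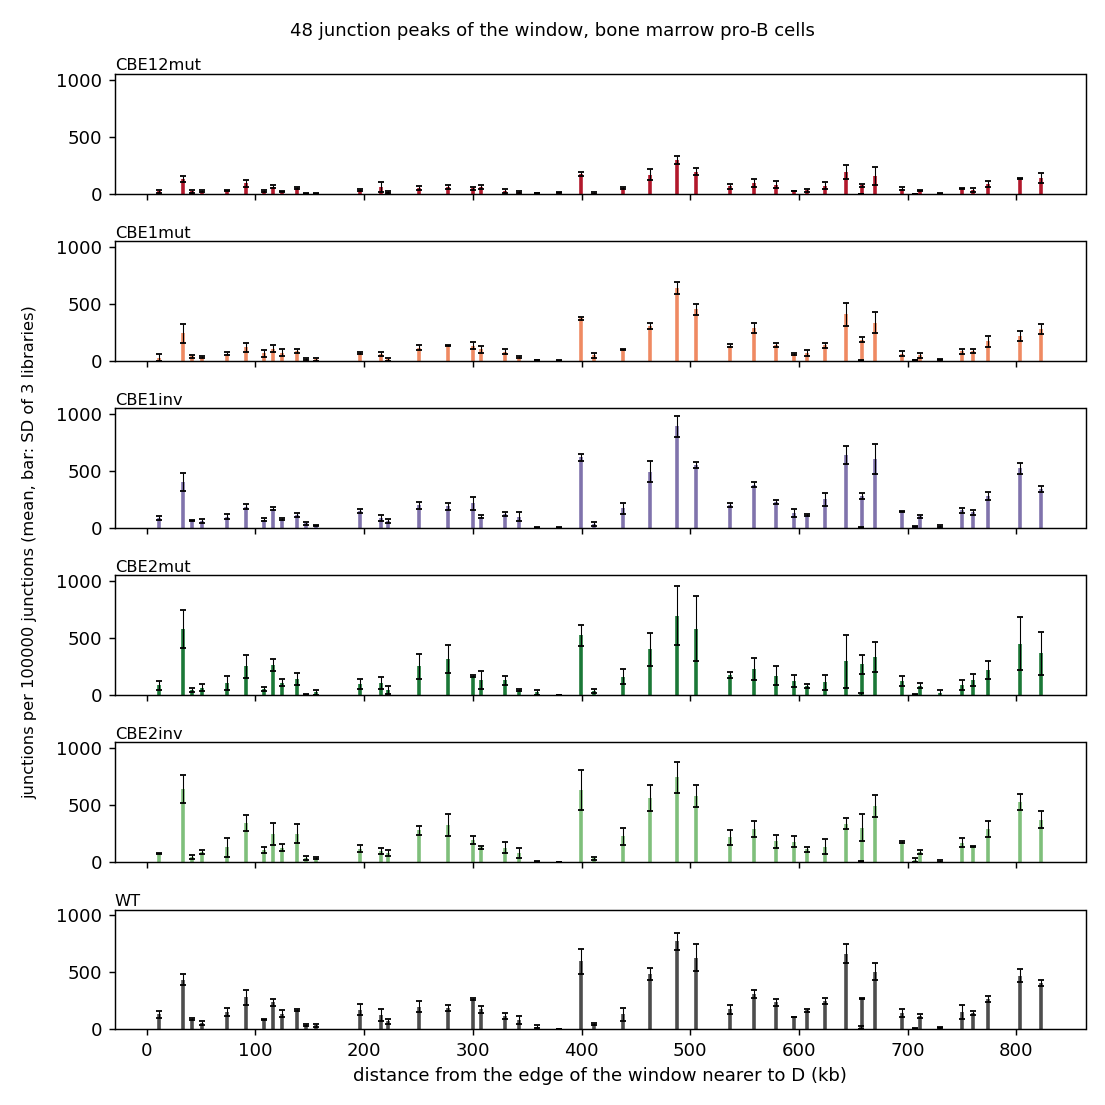
Mean junctions per 100000 junctions at each of the 48 bone marrow peaks of the window, against distance in kb from the edge of the window nearer to D, 1 panel per genotype; coloured bars are means from 0 and thin lines the SD of 3 libraries. CBE12mut peaks reach at most 297 on a scale on which the highest WT peak, Ighv2-9, reaches 773, and that peak lies beyond the middle of the window.

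Several bone marrow peaks share nearly all of their sequence, so the authors' alignment decided which copy received a read. Over about 300 bases, 7 pairs of the window's peaks had an identity of 99% or more, and 10 peaks belonged to such a pair. Among them were the peaks at 114976040, 115006778 and 115111723, all closest to Ighv2-6, and those at 114998635 and 115055837, both closest to Ighv5-9. The peak at 115111723, the largest fall of the window in CBE12mut, averaged 2.04 ± 2.02 there and 35.9 ± 9.21 in WT, and is uncertain for this reason.

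The window's junctions were also counted by V family. By closest C57BL/6 sequence, 14 of the 48 bone marrow peaks were Ighv5 and 14 were Ighv2. Ighv5 peaks held 27.6% ± 1.8 of the window's junctions in CBE12mut and 24.2% ± 0.3 in CBE1mut. They held 24.7% ± 1.4 in CBE1inv, 32.9% ± 5.0 in CBE2mut, 32.7% ± 3.3 in CBE2inv and 26.8% ± 1.2 in WT. The Ighv2 share was 22.4% to 25.1% in all 6 genotypes. On mm9, 4 of 39 segments and peaks were Ighv5 and 5 were Ighv2. The windows do not cover the same stretch: the last bone marrow peak inside is closest to Ighv7-3, while the mm9 window runs on past Ighv7-3 to Ighv13-2, so family numbers are not compared between them. In 3CBEdel cells Ighv5 and Ighv2 held 10.9% ± 2.3 and 16.5% ± 4.5 of the window's junctions with DoxIAA and 25.1% ± 2.2 and 27.8% ± 6.2 without. In WT v-Abl cells they held 9.4% ± 2.4 and 6.5% ± 2.6 with DoxIAA and 23.4% ± 5.4 and 32.9% ± 0.9 without. Ighv3, with 6 segments, held 21.7% ± 1.7 with DoxIAA and 6.1% ± 4.2 without in WT v-Abl cells. The unannotated peak beside Ighv3-2 was not counted in Ighv3.

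At the D side of the window the first member inside had a lower mean than Ighv5-12, just outside, in all 10 groups, and at the far edge there was no common direction. The window was set by position, so these values are a description with no test. Ighv5-12, on the D side, had 106 ± 46.8 junctions per 100000 in CBE12mut and 526 ± 130 in WT bone marrow. The first peak inside, at 114976040, had 21.1 ± 12.1 in CBE12mut and 131 ± 29.8 in WT. In the v-Abl lines the first segment inside, Ighv2-6, had 35.9 ± 47.3 in 3CBEdel cells with DoxIAA and Ighv5-12 had 39.8 ± 24.5, and their spreads overlapped. In untreated WT cells Ighv2-6 had 30.3 ± 6.2 and Ighv5-12 had 42.6 ± 0.667. At the far edge, the last peak inside, at 115788124, had 141 ± 42.7 in CBE12mut and 406 ± 27.0 in WT, and the first outside, at 115810681 and closest to Ighv14-1, had 118 ± 26.4 and 352 ± 45.9. On mm9 the far edge fell between Ighv13-2 inside, with 236 ± 34.1 in DoxIAA-treated WT cells and 8.8 ± 3.3 in untreated WT cells, and Ighv12-3 outside, with 347 ± 61.4 and 10.5 ± 9.8.

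In the v-Abl lines treatment with IAA and doxycycline was set against no treatment. The window's level was 1072, 1149.5 and 1631 per 100000 in 3CBEdel DoxIAA libraries, against 279, 282 and 311 in untreated 3CBEdel libraries. It was 1675, 1628 and 1551 in WT DoxIAA libraries, against 159, 161 and 171 in untreated WT libraries. Every treated library lay above every untreated library of its line. The fold was 4.35 in 3CBEdel and 9.88 in WT (exact permutation p = 0.1 each), and over both lines, with treatment permuted within genotype, the log2 difference was 2.71 (exact permutation p = 0.005, adjusted p = 0.0425). In the run that held most v-Abl libraries it was 2.62 (exact permutation p = 0.0556, the smallest that run allows).

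The 2 lines were also compared within each treatment. Without treatment the 3CBEdel level was 291 ± 17.6, against 164 ± 6.5 in WT, 1.78 times as high with no overlap (exact permutation p = 0.1). With DoxIAA it was 1284 ± 303, against 1618 ± 62.3 in WT, with overlapping libraries (exact permutation p = 0.3, adjusted p = 0.392). Only 3CBEdel DoxIAA replicate 3, at 1631, overlapped WT, and its sequencing run held no WT library. In the run that held most v-Abl libraries, 3CBEdel had 1072 and 1149.5 with DoxIAA, below the 1628 and 1551 of WT. The log2 difference there was -0.517 (exact permutation p = 0.333, with too few libraries for a lower value). Whether the run caused the overlap was not tested. The log2 treatment effect in 3CBEdel minus that in WT was -1.19 (exact permutation p = 0.015, adjusted p = 0.085, which misses the threshold of 0.05), and in the largest run -1.27 (exact permutation p = 0.0556, the smallest that run allows). For these p-values genotype was permuted within treatment, so a difference between the lines in 1 treatment alone could also lower them.

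The window's share of V joins was also higher with DoxIAA. The share was 17.98%, 18.4% and 20.9% in 3CBEdel DoxIAA libraries, against 15.0%, 16.8% and 16.5% without treatment. In WT cells it was 17.8%, 17.3% and 16.6% with DoxIAA, against 9.27%, 8.52% and 8.43% without. No treated library overlapped the untreated libraries of its line, and the difference over both lines was 5.75 percentage points (exact permutation p = 0.005, adjusted p = 0.0283). 3CBEdel stood 4.59 points above WT over both treatments (exact permutation p = 0.005, adjusted p = 0.0283), with 7.35 points untreated and 1.84 points with DoxIAA (exact permutation p = 0.1 each). In the largest run these values were 5.39 and 4.33 points (exact permutation p = 0.0556 each). Without the V segments nearer to D in the denominator, the treated shares were 21.7% ± 1.77 in 3CBEdel and 19.1% ± 0.73 in WT, against 64.9% ± 4.96 and 57.6% ± 7.47 untreated, a treatment difference of -40.8 points (exact permutation p = 0.005).

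Of the window's 39 v-Abl segments and peaks, 20 passed the filter, 11 of them with the untreated libraries alone, so 9 entered through the treated libraries in which they were high. In WT cells 15 of 20 rose with DoxIAA, where 69.6% of all 92 V and D segments and peaks tested rose. In 3CBEdel 11 of 20 rose, where 66.3% of all rose. None of the 20 fell in either line by limma voom. That background was uneven along the locus. In both lines 41 of 41 tested beyond the window rose, and 0 of 8 V segments nearer to D did. The filter sets part of these counts: of the 11 segments that passed with untreated libraries alone, 6 rose in WT cells and 4 in 3CBEdel cells. The share of all V and D segments that rose under that stricter filter was not taken, so the 6 and 4 have no background beside them. Leaving out 1 library brought the 3CBEdel count to 7 (untreated replicate 1) or 5 (DoxIAA replicate 3). The median log2 change was 3.25 in the window and 4.58 over all tested in WT, and 2.08 and 3.33 in 3CBEdel. V segments beyond the window had medians of 6.46 and 5.15. These medians are over segments that passed the filter and are not a test of the window.

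Ighv13-2, the last segment of the window, had the highest level with DoxIAA. It had 222, 111 and 205 junctions per 100000 in 3CBEdel DoxIAA libraries against 17.3, 16.7 and 9.6 untreated, and 197, 259 and 252 in WT DoxIAA libraries against 10.1, 11.4 and 5.1 untreated. All treated libraries lay above all untreated ones (log2 change 3.49, SE 0.51, limma voom adjusted p = 1.62e-05 in 3CBEdel, and 4.83, SE 0.51, limma voom adjusted p = 2.77e-07 in WT). Ighv3-8 averaged 113 ± 35.7 with DoxIAA and 9.07 ± 3.74 untreated in 3CBEdel, and 199 ± 94.8 and 2.56 ± 3.27 in WT, with no overlap. Its log2 changes, 3.64 and 6.90, both passed (limma voom adjusted p = 0.00106 and 3.68e-07). Ighv13-2 and Ighv3-8 passed the filter with the untreated libraries alone. Both were among the 10 listed for their level with DoxIAA, a choice that favours a higher treated level.

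Ighv2-9, Ighv7-1, Ighv5-17 and Ighv2-6 lie nearer to D and passed the filter with the untreated libraries alone. Of these, Ighv2-9, Ighv7-1 and Ighv5-17 were also among the segments listed for their level with DoxIAA, which favours a higher treated level. Ighv2-9 averaged 96.3 ± 62.2 with DoxIAA and 23.1 ± 17.6 untreated in 3CBEdel, and 47.6 ± 22.5 and 11.3 ± 5.03 in WT (log2 change 1.92 and 2.01, limma voom adjusted p = 0.0141 and 0.0201). Ighv7-1 averaged 75.9 ± 70.1 and 23.5 ± 5.42 in 3CBEdel, where its libraries overlapped (1.03, limma voom adjusted p = 0.263), and 96.6 ± 79.8 and 13.6 ± 3.88 in WT (2.55, limma voom adjusted p = 0.00309). Ighv5-17 rose in WT by 1.85 with 1 overlapping treated library (limma voom adjusted p = 0.0138) and changed by 0.77 in 3CBEdel (limma voom adjusted p = 0.361). Ighv2-6, the first segment inside the window, averaged 35.9 ± 47.3 and 23.6 ± 15.1 in 3CBEdel and 16.9 ± 6.32 and 30.3 ± 6.2 in WT, where its libraries overlapped (-0.73, limma voom adjusted p = 0.396). It was the most used segment of the window in untreated WT cells. With V joins in place of all junctions as library size, the change of Ighv2-9 in WT cells was -0.31 and that of Ighv7-1 in 3CBEdel cells -0.72 on the log2 scale.

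The remaining 5 of the segments printed above were Ighv11-2, Ighv3-3, Ighv7-3, Ighv3-6 and the unannotated peak. They were listed for their level with DoxIAA and entered the fit only through the treated libraries, so a higher treated level was fixed by that choice and their values are a description. In WT cells they averaged 111 ± 26.0, 69.2 ± 45.3, 57.6 ± 30.9, 49.2 ± 46.9 and 58.6 ± 41.5 per 100000 with DoxIAA, against levels of 2.28 to 3.22 untreated. Treated and untreated libraries of Ighv3-6 overlapped in WT cells, where 1 of the 3 DoxIAA libraries had no junction. In 3CBEdel cells the unannotated peak had 39.6 ± 26.9 with DoxIAA against 6.89 ± 6.57 untreated. The 10 segments held 50.9% of the window's pooled v-Abl junctions.

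When the window's own junctions served as library size, the comparison asked how junctions were spread within the window. In WT cells Ighv3-8 (3.61), Ighv11-2 (2.10) and Ighv13-2 (1.54) then came out higher with DoxIAA on the log2 scale, and Ighv2-6 (-4.02), Ighv2-9-1 (-2.36) and Ighv5-17 (-1.43) fell (6 of 20 called). In 3CBEdel cells Ighv7-3 (3.04) and Ighv13-2 (1.40) came out higher, and Ighv5-9-1 (-3.30), Ighv11-1 (-2.37) and Ighv2-6 (-2.05) fell (5 of 20 called). Of these, Ighv11-2 and Ighv7-3 were in the fit only through the treated libraries, so nothing is read from their direction. The share of all segments called with this library size was not taken, so the counts of 6 and 5 are not read as a result about the window. Between the lines, 0 of 20 were called by limma voom, both untreated, where 2.17% of all were called, and with DoxIAA, where 1.09% were called. At an unadjusted p under 0.05 there were 4 and 1, and limma trend called 0 in both. The share of all segments at an unadjusted p was not taken, so the 4 and 1 are not read as a result. The median log2 change in 3CBEdel against WT was 0.84 over the 20 untreated, with 17 of them higher, and 0.26 over all tested. With DoxIAA it was -0.46 in the window, with 13 of 20 lower, and -0.46 over all. A count of 0 does not show that the lines were equal.

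**Figure D4:**
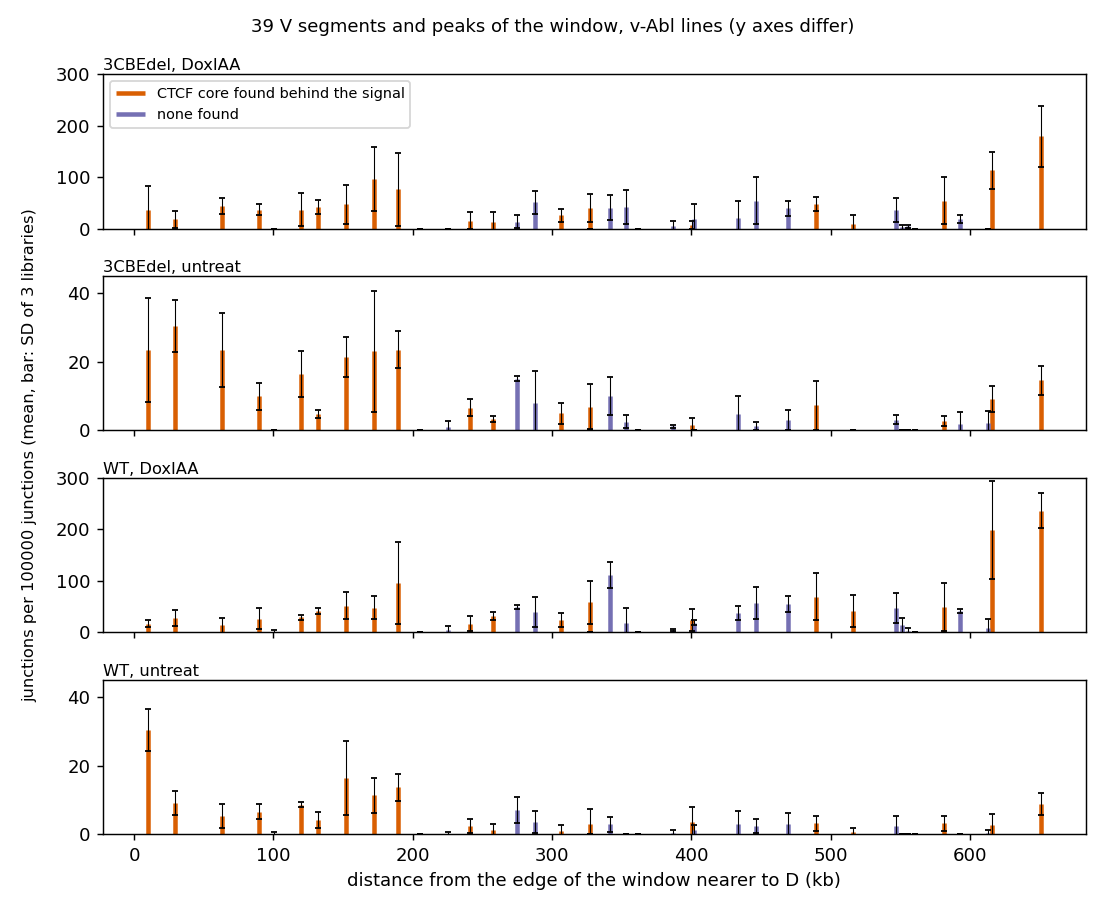
Mean junctions per 100000 junctions at each of the 39 v-Abl segments and peaks of the window, against distance in kb from the edge nearer to D, 1 panel per group; coloured bars are means from 0, thin lines the SD of 3 libraries, and the colour shows whether a CTCF-type core was found behind the recombination signal, and the y axes of treated and untreated panels differ. In treated cells the far end carries the highest levels, 236 at Ighv13-2 and 199 at Ighv3-8 in WT, while in untreated WT cells Ighv2-6 at the D end is highest with 30.3.

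The share of the window's junctions in its D-side part was compared between treatments. The part nearer to D, up to the window's middle, held 47.7%, 45.2% and 45.6% of the window's junctions in 3CBEdel DoxIAA libraries, against 78.3%, 79.5% and 72.5% untreated. It held 39.3%, 38.1% and 29.2% in WT DoxIAA libraries, against 83.7%, 72.2% and 72.8% untreated. Treated and untreated libraries did not overlap in either line, and the difference over both was -35.7 percentage points (exact permutation p = 0.005, adjusted p = 0.0777, which misses the threshold of 0.05). In 5 equal parts counted from D, the level of the first part was 172 ± 49.2 with DoxIAA and 104 ± 20.9 untreated in 3CBEdel and 116 ± 17.4 and 60.9 ± 8.3 in WT, and that of the last part was 409 ± 135 and 35.9 ± 7.1 in 3CBEdel and 599 ± 56.1 and 17.7 ± 5.1 in WT.

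The same share was taken in bone marrow. The part nearer to D held 34.3% ± 2.85 in CBE12mut and 32.9% ± 0.70 in CBE1mut. It held 33.0% ± 0.43 in CBE1inv, 42.1% ± 4.66 in CBE2mut, 40.5% ± 3.57 in CBE2inv and 37.7% ± 1.51 in WT. CBE1mut and CBE1inv lay below WT without overlap. The permutation p over 6 genotypes was 0.00914 (adjusted p = 0.0777, which also misses the threshold) and within the run of WT 0.0419. The higher means of CBE2mut and CBE2inv belonged to the other run.

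Segments with and without the CTCF-type core were counted apart in the v-Abl lines. The 19 segments with it held 72.7% ± 5.54 of the window's junctions with DoxIAA and 80.5% ± 2.39 untreated in 3CBEdel, and 68.0% ± 4.06 and 82.5% ± 3.805 in WT. Their summed level was 4.00 times as high with DoxIAA as untreated in 3CBEdel and 8.16 times in WT, and that of the 16 without it 6.21 and 18.6 times. Position moved with this split, because 13 of the 19 with the core and 4 of the 16 without it lay in the part nearer to D. In the part nearer to D, segments with the core had 482 ± 119 per 100000 with DoxIAA and 113 ± 4.75 untreated in WT, and those without it 94.996 ± 36.1 and 11.1 ± 5.45. In the farther part the values in WT were 619 ± 35.6 and 22.1 ± 8.79 with the core, and 401 ± 33.9 and 15.6 ± 7.32 without. In 3CBEdel the part nearer to D had 525 ± 150 with DoxIAA and 199 ± 7.65 untreated with the core. Segments without it had 64.8 ± 18.1 and 24.3 ± 8.70 there. The farther part in 3CBEdel had 410 ± 99.8 and 35.3 ± 6.97 with the core, and 274 ± 103 and 30.3 ± 10.6 without. The part of either feature in the difference was not tested.

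The D segment inside V joins was read from the sequence between V and JH. Ighd1-1, also known as DFL16.1, lies at the V side of the main D cluster. Among the window's joins with a readable D it made up 12.8%, 14.0% and 9.0% in CBE12mut, 36.04%, 37.4% and 42.7% in CBE1mut, and 33.1%, 31.6% and 34.3% in WT. CBE12mut libraries were the lowest of all, and CBE1mut lay above WT. Shares were 32.3% ± 2.04 in CBE1inv, 23.4% ± 1.73 in CBE2mut and 21.0% ± 3.77 in CBE2inv. The 6 genotypes differed (permutation p = 1e-05, the smallest that 100000 draws can give, adjusted p = 0.00016), also within the run of WT (permutation p = 0.00043).

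Over the 18 bone marrow libraries Ighd1-1 was in 26.7% of the window's readable joins and in 14.2% of those of V segments nearer to D, higher in the window in 18 of 18 libraries (sign-flip permutation p = 2e-05). Against V segments beyond the window the mean difference was 0.05 percentage points, higher in 9 of 18 libraries (sign-flip permutation p = 0.933). In the v-Abl lines Ighd1-1 was in 42.7% ± 9.27 of the window's joins with DoxIAA and 66.6% ± 11.5 untreated in 3CBEdel, and in 48.1% ± 6.36 and 65.5% ± 7.87 in WT. No treated library reached the untreated ones of its line, and the difference over both lines was -20.6 points (exact permutation p = 0.005, adjusted p = 0.04). The window exceeded the V segments nearer to D in 12 of 12 v-Abl libraries, by 19.1 points (exact sign-flip permutation p = 0.000488, the smallest possible). Against the V segments beyond it the mean difference was -1.97 points, with the window higher in 6 of 12 libraries (exact sign-flip permutation p = 0.496).

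The reading frame of the V to JH join was read where the conserved cysteine of V and tryptophan of JH could be found. In frame were 67.9%, 64.8% and 69.6% of the window's readable joins in CBE12mut, 73.3%, 66.2% and 65.9% in CBE1mut, and 58.6%, 55.5% and 55.4% in WT. Both mutants lay above WT without overlap (exact permutation p = 0.1 each). CBE1inv had 60.4% ± 1.91, CBE2mut 64.7% ± 1.69 and CBE2inv 66.0% ± 4.55, and the 6 genotypes differed (permutation p = 0.00267, adjusted p = 0.0427), also within the run of WT (permutation p = 0.00207).

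Over the 18 bone marrow libraries 63.9% of the window's joins were in frame, against 31.2% of the joins of V segments nearer to D, higher in 18 of 18 libraries (sign-flip permutation p = 2e-05). The V segments beyond the window had 61.5%, a difference of 2.46 points with the window higher in 15 of 18 libraries (sign-flip permutation p = 0.00023). In the v-Abl lines the window had 30.9% ± 4.92 in frame with DoxIAA and 32.3% ± 4.03 untreated in 3CBEdel, and 35.4% ± 10.7 and 34.7% ± 9.38 in WT. Those values lie around the 33.3% that joining would give if 1 join in 3 kept the frame, and they overlapped between treatments.

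**Figure D5:**
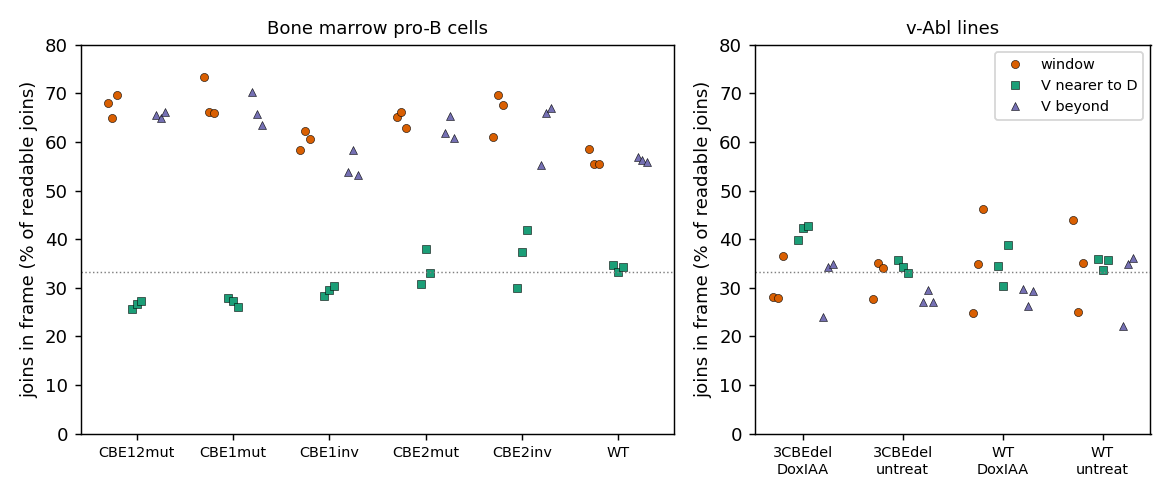
Percentage of joins in frame, 1 point per library, for joins of the window (circles), of V segments nearer to D (squares) and of V segments beyond the window (triangles); the dotted line marks 33.3%, 1 join in 3. In bone marrow every library has more in-frame joins in the window (55.4% to 73.3%) than nearer to D (25.6% to 41.9%), and in the v-Abl lines the points of all 3 sets lie between 22.1% and 46.3%.

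The frame also differed between peaks of the window. Over the 44 bone marrow peaks with at least 100 readable joins, pooled over all libraries, the in-frame percentage ran between 24.97% and 75.7% with a median of 64.5%, and 11 peaks were under 50%. Ighv2-9 had 65.3% (95% Wilson interval 64.2% to 66.4%) and Ighv7-1 65.8% (64.5% to 67.1%), although mm9 annotates Ighv7-1 as a pseudogene. Ighv14-2 had 34.8% (31.9% to 37.8%), and the peaks at 115560449 and 115623228, both closest to Ighv11-2, had 24.97% and 36.4%. These intervals treat pooled reads as independent and leave out the spread between libraries and genotypes. In the v-Abl lines the 13 segments with at least 100 readable joins ran between 21.9% and 44.97%, all under 50%.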

How the data were processed

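Each deposited table was 1 library, and each line in it 1 read with a junction between the bait and a prey position; per the labels no enzyme blocking step was used, and per the submitters' processing notes Bowtie2 and mm9 were used. Bone marrow reads were aligned by the authors to a target that joins 129 sequence to mm9; it was not used here, so bone marrow peaks were named by BLAST 2.17.0 only at 96% identity or more, a bit margin of 15 and an offset within 10 kb (6 of 48). The unit was therefore the number of deposited junction lines, as a level per 100000 lines of the library or a share.

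Junctions within 100 bases of a segment or peak were summed with Python 3.11.15 and pandas 2.3.3. Single values were tested by exact permutation of 3 against 3 libraries, within strata for both v-Abl lines, or by 100000 draws over 6 genotypes. Segments were tested with limma 3.58.1 (voom) in R 4.3.3 over all V and D segments and peaks with at least 10 junctions in 3 libraries. Library totals served as size, and the threshold was adjusted p 0.05. The code was tested on simulated data. All replicate pairs differed beyond sampling noise (chi-square per degree of freedom 3.66 or more). Same-numbered libraries deviated together in every pair (correlation over 0.1) in 1 of 13 comparisons, CBE1inv against WT, whose count of calls the block left at 1. The D segment was read from a run of at least 8 bases. Named are the 10 most used segments of each set, segments called without overlap that reach 20 per 100000 (at most 10 each way), and the segments at the edges; the text describes examples of these. The window, the lists and the rule were chosen with earlier results of these data known. Alternatives covered library size, filters, repeated reads, runs, replicates and tools.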

Additional observations from a re-analysis of the deposited data

Results flagged for a closer look

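The treatment effect on the window's level was compared between the v-Abl lines. DoxIAA minus untreated was 2.12 on the log2 scale in 3CBEdel and 3.31 in WT, a difference of -1.19 (exact permutation p = 0.015, adjusted p = 0.085 over 17 comparisons). It drew attention because its exact permutation p was under 0.05 before adjustment, and it was not after adjustment. Genotype was permuted within treatment, so this p does not test equality of the treatment effects alone. Within the largest sequencing run it was -1.27 (exact permutation p = 0.0556, the smallest that run allows).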

How the results depend on the processing

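Without the V segments nearer to D among the V joins, differences in the window's share changed sign: 6.05 percentage points for CBE12mut against WT, 5.90 for CBE1mut, 3.02 for CBE1inv and 1.09 for CBE2mut, -2.88 for CBE1inv against CBE1mut, -4.68 for CBE2inv against CBE2mut, 0.159 and 4.96 for CBE12mut against CBE1mut and CBE2mut, and -38.4, -43.2 and -40.8 for DoxIAA in WT, in 3CBEdel and over both. The 3CBEdel difference over both treatments, 4.95, no longer passed (exact permutation p = 0.08). In the largest v-Abl run, where the smallest exact permutation p is 0.0556, the treatment effect over both lines was 2.62 and its difference between lines -1.27 on the log2 scale, and share differences were 5.39 for treatment and 4.33 for genotype. Split at the first of 3 equal parts of the window, the treatment effect on position differed between the lines by 15.3 points (exact permutation of genotype within treatment, p = 0.02). With repeated reads collapsed, the treatment difference in frame was 1.33 points.

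Counts of segments called depended on the library size. The share of all segments called was taken for the main fit alone, so the counts below have no background beside them. Median-of-ratios scaling called 1, 2, 0, 1 and 1 in CBE12mut, CBE1mut, CBE1inv, CBE2mut and CBE2inv against WT, 0 in CBE1inv against CBE1mut, 0 and 1 in CBE12mut against CBE1mut and CBE2mut, and 9 and 6 for DoxIAA in WT and 3CBEdel. The window's own junctions as size called 0, 1 and 0 in CBE12mut, CBE1mut and CBE1inv against WT, 0 in CBE1inv against CBE1mut, 0 and 1 in CBE12mut against CBE1mut and CBE2mut, and 6 and 5 for DoxIAA. V joins as size called 13, 11 and 1 in CBE1inv, CBE2mut and CBE2inv against WT, 42 in CBE1inv against CBE1mut, and 8 and 4 for DoxIAA. Limma trend called 15 in CBE1mut and 0 in CBE1inv against WT, and 8 in CBE1inv against CBE1mut. Without the filter 28 and 21 were called for DoxIAA in WT and 3CBEdel. That setting admits segments with no untreated junction, such as Ighv9-4 in WT cells, which could not fall, so nothing is read from these counts. In CBE12mut against WT, Ighv2-9, Ighv7-1 and Ighv5-17 changed by 0.58, 0.27 and 0.41 with median-of-ratios scaling and by 0.38, 0.082 and 0.22 with the window's own junctions. With DoxIAA, Ighv7-1 turned to -0.43 (median of ratios), -0.72 (V joins) and -0.93 (own junctions) in 3CBEdel and -0.73 (own junctions) in WT, and Ighv2-9 to -0.31 (V joins) and -1.29 (own junctions) in WT and -0.085 (own junctions) in 3CBEdel. The cause was not tested.

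With the replicate block 1 peak was called in CBE2inv against WT, and the block moved no other count of calls by more than 1.5 times. Leaving out 1 library at a time, counts ran 6 to 18 for CBE1inv against CBE1mut, 0 to 1, 19 to 26, 1 to 5 and 0 to 1 for CBE1inv, CBE1mut, CBE2mut and CBE2inv against WT, 0 to 1 for CBE2inv against CBE2mut and for 3CBEdel against WT with DoxIAA, and 5 to 12 for DoxIAA in 3CBEdel. The CBE2inv level difference ran -0.050 to 0.092, the level difference between treatment effects -1.38 to -1.05, and treatment differences 0.505 to 1.24 points in orientation and -3.13 to 2.21 in frame. Ighv2-9 ran 1.62 to 2.32 in WT and 1.47 to 2.57 in 3CBEdel, and Ighv7-1 0.46 to 2.02 in 3CBEdel. With 1 library left out 580 values kept direction and side of the threshold (or, without a test, stayed within the replicate spread) and 35 did not, 9 of them with the sign reversed. Under other alternatives 334 did and 71 did not, 25 of them reversed. Untreated v-Abl levels rest on few junctions per segment.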

Other observations

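The bone marrow peak at 115343912, closest in sequence to Ighv5-2 and too sparse for the fit, was higher in the CBE12mut libraries. It had 17.5, 5.66 and 12.4 junctions per 100000 in CBE12mut libraries, against 1.26, 0 and 2.22 in WT libraries. The peak held 60 junctions in all and was chosen after its values were seen, so no test is given. Whether reads of Ighv5-2, which lies nearer to D, were placed at this peak was not tested.

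Among the window's joins with a readable D, the Ighd2 family made up 69.1% ± 1.46 in CBE12mut, 52.1% ± 3.41 in CBE1mut and 60.7% ± 1.07 in CBE1inv (SD, n = 3 each). It made up 67.6% ± 3.05 in CBE2mut, 69.4% ± 3.23 in CBE2inv and 60.03% ± 1.48 in WT bone marrow. No order of the genotypes by mutation is read from these shares.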
